A study of Mus musculus with 15 samples.

Results

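The 33 genes described here are interferon-induced genes, listed by name as genes that cells switch on after type I interferon. The list was made with earlier results of these data known, so the shares of all genes given beside it are a description and no unbiased test. They were found by the gene names on the array, with old symbols brought up to date through the accessions, so that Isg15 was read from the name G1p2, Irf9 from Isgf3g and Dhx58 from D11Lgp2e. Of the 33 genes, 32 had a probe and all 32 passed the filter on dim probes. For 25 of them the probe that stands for the gene was well above background on all 15 arrays. They had 52 of the 41174 probes, and stand beside 21300 genes that passed in all. Xaf1 had no probe under its name and has no value.

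Colon areas of female Swiss Webster mice, an outbred stock, were captured by laser microdissection of frozen colon, and their RNA was hybridised to mouse arrays after 2 rounds of amplification. Every mouse had received azoxymethane (AOM, a colon carcinogen) at 7.4 mg/kg and then 3 cycles of 4% dextran sulfate sodium (DSS, which injures the colon lining). A cycle was given as 7 days of DSS followed by 21 days of water. The 4 groups of 2 mice were polypoid tissue of mice on 5-aminosalicylic acid (5-ASA, a drug used against colitis, 75 mg/kg), polypoid tissue of untreated mice, inflamed tissue of 5-ASA mice and inflamed tissue of untreated mice. Age was 7 weeks at entry, 9 weeks when DSS began and 18 weeks at death. By these ages, 21 days of water after the last DSS course would not fit before death. The labels call the mice without drug untreated, while the design text names a vehicle. No mice without AOM and DSS were analysed here, so each value below compares diseased tissue with diseased tissue. Each of the 8 areas came from a different mouse.

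Type I interferons bind a receptor pair on nearly all cells, and the receptor's kinases activate Stat2. A complex that holds Stat2 and Irf9 binds a DNA element called the ISRE and switches on antiviral genes. Interferon gamma, made by T and NK cells, acts at another element, the GAS, and induces many of the same genes, among them Irf1, Cxcl9 and the interferon-inducible GTPases. In the intestine such genes are expressed in epithelium, macrophages and other cells.

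The windows upstream of these genes were searched for both elements. RefSeq windows of 250 bases before to 50 bases after the start of the gene were held for 27 of the 33 genes. A core of the ISRE, a pair of GAAA with any 2 bases between, was searched on both strands and occurred in 16 of the 27 (59.3%), against 3.99% of 27025 genes. TTCNNNGAA, the GAS core, occurred in 7 of the 27 (25.9%), against 9.55% of all genes. Windows of 5 genes are printed as examples. Isg15, Ifit1, Bst2 and Oasl1 all had lower means with 5-ASA in polypoid tissue and higher means in inflamed tissue. In Bst2 and Oasl1 the mice of the 2 arms did not overlap in either tissue, while in Isg15 and Ifit1 they overlapped in polypoid tissue. Ddx58 had higher means with 5-ASA in both tissues. Whether the matches relate to these values was not tested. Capitals mark the matches, which overlap in Isg15 and, with a GAS match before the ISRE, in Bst2.
Isg15 (GRCm38.p6, chr4:156200769-156201068, minus strand): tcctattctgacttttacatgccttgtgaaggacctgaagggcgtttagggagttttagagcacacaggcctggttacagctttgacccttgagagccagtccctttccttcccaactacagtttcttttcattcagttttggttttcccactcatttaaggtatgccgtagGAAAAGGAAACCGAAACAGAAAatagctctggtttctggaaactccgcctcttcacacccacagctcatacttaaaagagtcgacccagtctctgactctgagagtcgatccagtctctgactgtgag
Ifit1 (GRCm38.p6, chr19:34640639-34640938, plus strand): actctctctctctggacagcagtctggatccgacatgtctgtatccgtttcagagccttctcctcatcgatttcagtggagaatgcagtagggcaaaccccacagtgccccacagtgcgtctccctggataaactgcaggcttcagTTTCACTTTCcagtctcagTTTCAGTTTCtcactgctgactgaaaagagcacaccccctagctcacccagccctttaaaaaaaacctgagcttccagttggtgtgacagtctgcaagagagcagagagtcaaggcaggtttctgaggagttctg
Bst2 (GRCm38.p6, chr8:71537423-71537722, minus strand): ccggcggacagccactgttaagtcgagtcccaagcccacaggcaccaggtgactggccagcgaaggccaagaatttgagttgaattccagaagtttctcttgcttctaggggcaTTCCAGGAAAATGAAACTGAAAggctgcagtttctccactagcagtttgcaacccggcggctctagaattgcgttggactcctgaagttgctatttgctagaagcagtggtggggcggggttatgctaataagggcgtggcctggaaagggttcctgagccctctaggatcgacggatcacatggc
Ddx58 (GRCm38.p6, chr4:40239776-40240075, minus strand): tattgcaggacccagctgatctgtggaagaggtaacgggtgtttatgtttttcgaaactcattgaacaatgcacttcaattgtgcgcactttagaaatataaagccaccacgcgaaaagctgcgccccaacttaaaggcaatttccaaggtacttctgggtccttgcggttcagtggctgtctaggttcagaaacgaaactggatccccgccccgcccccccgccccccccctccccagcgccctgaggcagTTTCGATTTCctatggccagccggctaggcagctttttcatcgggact
Oasl1 (GRCm38.p6, chr5:114922990-114923289, plus strand): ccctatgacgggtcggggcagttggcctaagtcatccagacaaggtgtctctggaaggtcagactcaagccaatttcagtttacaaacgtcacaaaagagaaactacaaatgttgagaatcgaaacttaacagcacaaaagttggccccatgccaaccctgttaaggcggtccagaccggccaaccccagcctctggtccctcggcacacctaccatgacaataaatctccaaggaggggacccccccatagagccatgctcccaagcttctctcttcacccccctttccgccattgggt
The ISRE letters began 78, 72 and 66 bases before the start in Isg15, 104 and 85 bases before it in Ifit1, and 130 and 124 bases before it in Bst2. In Ddx58 the match lay just past the start, and in Oasl1 neither set of letters was found in the window. A match of letters is not a measured binding site, and these windows come from the C57BL/6J reference genome and not from Swiss Webster mice.

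A value below is the log2 ratio of an animal's tissue RNA to a universal mouse reference RNA on the same arrays, so it can be compared between animals for a gene but not between genes. Of the 8 mice, 7 had 2 arrays with swapped dyes, while the second 5-ASA mouse with inflamed tissue had 1. The arrays' median sample intensity was 148.6 to 257.2 over a local background of 41 to 63, and 57.4% to 90.9% of probes were well above background. Over all genes the 2 mice of a group correlated at 0.872 to 0.943. For the interferon genes the 2 arrays of a mouse differed by a median of 0.09 log2, and at most by 0.55, after the dye effect. None of the 32 genes was saturated. Arrays were scanned in 4 sessions, with the 2 inflamed replicates 1 in session 1, the 2 polypoid replicates 1 in session 2, the second 5-ASA inflamed mouse alone in session 4 and the other 3 mice in session 3.

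The clearest feature was the inflamed tissue of 5-ASA mice, where the interferon genes had their highest medians. Relative to each gene's mean over the 8 mice, the median of the 32 genes was 0.99 and 0.35 log2 in 5-ASA inflamed tissue, against 0.01 and -0.42 in untreated inflamed tissue. In polypoid tissue it was -0.31 and -0.58 in 5-ASA mice, against 0.18 and -0.46 in untreated mice. By the mean of the 32 genes only the first 5-ASA inflamed mouse stood above all others, at 0.99. The second had a mean of 0.22 with 26 genes above their own mean, against 0.35 and 29 genes in the first untreated polypoid mouse. The first 5-ASA inflamed mouse held the highest value of the 8 mice in 26 of 32 genes, which 11.9% of all genes did. The second 5-ASA polypoid mouse held the lowest value in 12 genes, and the second untreated polypoid mouse in 8. Both 5-ASA inflamed mice lay above all 6 other mice in 15 of the 32 genes (46.9%), among them Ifit2, Rsad2 and Oasl1, against 4.52% of all genes. Irf7 and Isg15 count among the 15 only by a hair. Their values in the second 5-ASA inflamed mouse were 1.1 and 0.9, level with 1.1 and 0.89 in the first untreated polypoid mouse. Other genes of the 15 were also close. In the same 5-ASA mouse Ifit3 had 1.88, against 1.86 in the first untreated inflamed mouse. Oasl2 had 4.61, against 4.54 in the first untreated polypoid mouse, and Trim25 1.41, against 1.34 in the second 5-ASA polypoid mouse. Untreated polypoid mice differed from each other by more than the 5-ASA polypoid mice did, with the first above its genes' means in 29 of 32 genes and the second in 5.

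**Figure D1:**
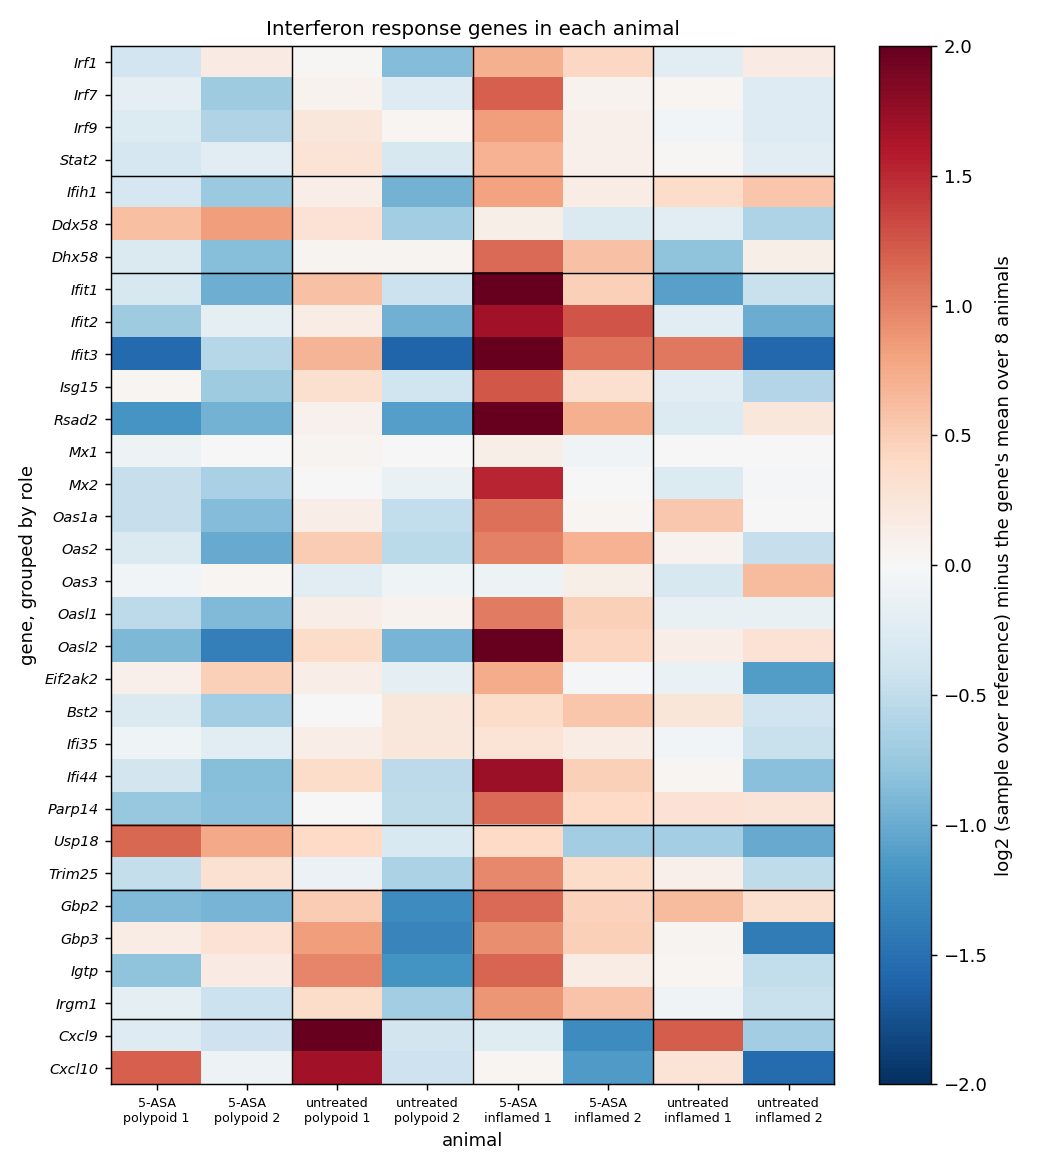
Log2 of sample over reference for 32 interferon response genes (rows, grouped by role) in the 8 mice (columns), each minus the gene's mean over the mice, with colours held at 2 and -2. The first 5-ASA inflamed mouse is the reddest column, with 30 of 32 genes above their mean, and 5-ASA polypoid mice are mostly blue.

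The genes varied together to different degrees. Over the 8 mice, 17 of the 32 genes had a Pearson r above 0.8 with the mean of the others, led by Stat2 (0.98), Ifi44 (0.97) and Irgm1 (0.95), and the median r was 0.8. Usp18 (0.05), Ddx58 (0.09), Cxcl10 (0.16) and Cxcl9 (0.17) followed the others hardly at all, and Oas3 had an r of -0.35. These are descriptions over 8 mice that share arrays, sessions and treatment groups. The genes are therefore not independent replicates of each other.

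In inflamed tissue, 5-ASA mice had higher means than untreated mice in 30 of the 32 genes, with a median difference of 0.81 log2 against -0.01 over all 21300 genes. Oas3 and Cxcl9 were the exceptions. Both 5-ASA mice lay above both untreated mice in 23 of the 32 genes (71.9%), against 14.9% of all genes, and in none did both lie below, against 14.6%. No gene of the array passed an adjusted p of 0.05 in limma in this comparison (0 of 21300, percent called 0), and no interferon gene did. At an unadjusted limma p under 0.05, 11 of the 32 genes were higher and 0 lower, against 2.46% and 1.92% of all genes. The size depended on the first 5-ASA mouse: without it the median was 0.39 and 25 of 32 genes were higher, and without the second it was 1.18.

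In polypoid tissue the difference ran the other way and was smaller. 5-ASA mice had lower means in 25 of the 32 genes, with a median of -0.34 log2 against 0.01 over all genes. Both 5-ASA mice lay below both untreated mice in 7 genes (21.9%), close to the 19.2% of all genes, and above in 3 genes, Ddx58, Oas3 and Usp18, against 21.3% of all genes. No gene passed an adjusted limma p of 0.05 (percent called 0). At an unadjusted limma p under 0.05, 1 interferon gene was higher (Ddx58) and 1 lower (Oasl1), against 4.56% and 3.2% of all genes. The lower level rested on the first untreated polypoid mouse: without it the median was 0.04 and 14 of 32 genes were lower. Without the second untreated polypoid mouse the median was -0.65.

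The drug's difference in polypoid tissue minus that in inflamed tissue, the interaction term of the fit, was negative in 29 of the 32 genes, with a median of -1.06 log2 against 0.03 over all genes. For 24 genes (75%) the mean was lower with 5-ASA in polypoid tissue and higher in inflamed tissue, against 22.4% of all genes. With no overlap between the mice in either tissue, 7 genes (21.9%) had this opposite pattern, namely Irf9, Dhx58, Mx2, Oasl1, Bst2, Ifi35 and Parp14, against 2.87% of all genes. They are the same 7 genes that lay below in polypoid tissue, a share close to the 19.2% of all genes there. The share of the 32 genes that lay above in inflamed tissue was 71.9%, against 14.9% of all genes. The reverse pattern occurred in 0 of the 32 genes and in 3.1% of all genes. No interaction passed an adjusted limma p of 0.05 in any gene of the array (percent called 0), with the smallest adjusted p at 0.8. At an unadjusted p under 0.05, 11 of the 32 genes were negative and 0 positive, against 3.01% and 2.96% of all genes. Without the first untreated polypoid mouse the median was -0.69 with 23 of 32 genes negative, and without the first 5-ASA inflamed mouse it was -0.66 with 25 negative.

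**Figure D2:**
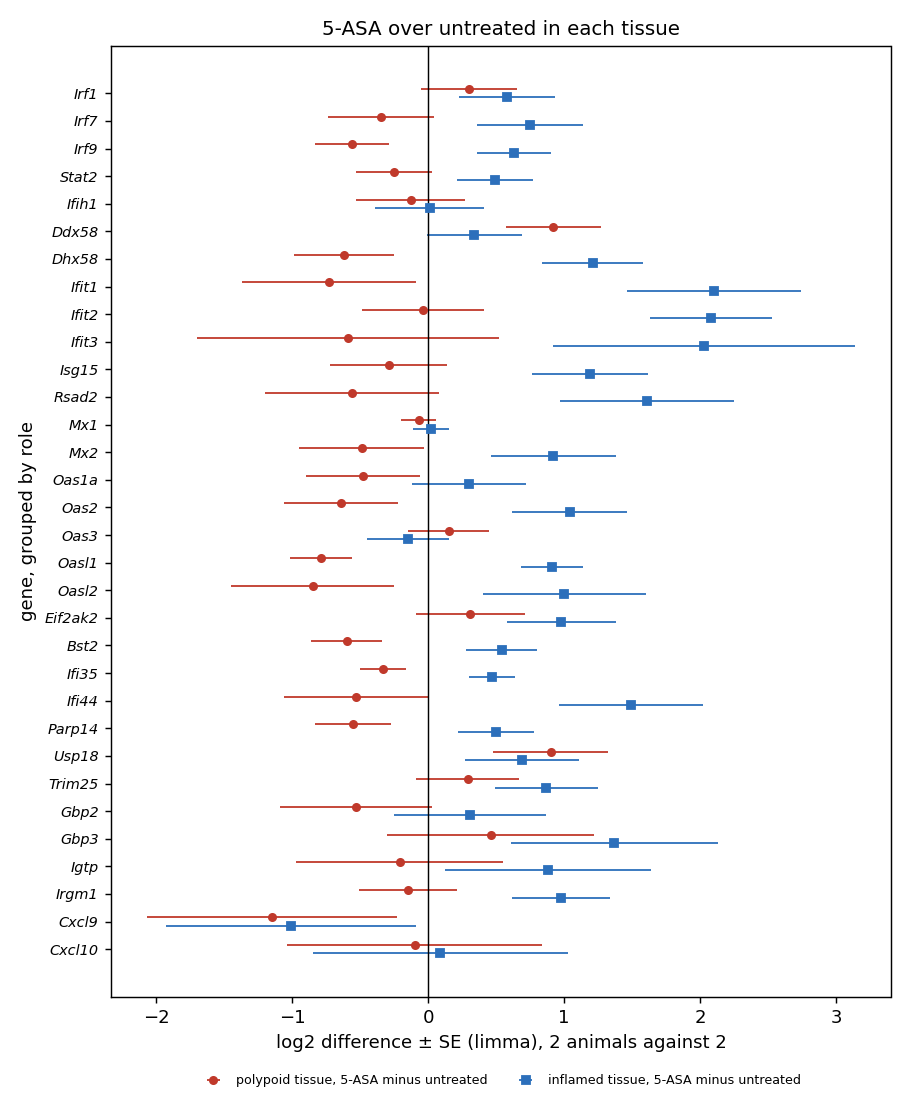
Log2 difference of 5-ASA minus untreated mice with its limma standard error for each of 32 interferon response genes, in polypoid tissue (red circles) and inflamed tissue (blue squares), 2 mice against 2 in each. The blue squares lie right of 0 for 30 genes and the red circles left of 0 for 25, and no single difference passed the adjusted threshold.

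Of the 3 drug pairs that shared a session, 2 differed in the direction of their tissue's median. No session held a drug pair of both tissues, so the split between tissues could not be seen within a session. In session 1 the 5-ASA inflamed mouse exceeded the untreated one in 30 of 32 genes, with a median of 0.91 log2. In session 2 the 5-ASA polypoid mouse was below the untreated one in 29 of 32 genes, with a median of -0.53. In session 3 the 5-ASA polypoid mouse was above the untreated one in 17 genes and below in 15, with a median of 0.06. The second inflamed pair lay in sessions 4 and 3, where the 5-ASA mouse was above in 28 of 32 genes with a median of 0.44, and there mouse and session cannot be told apart. The median over all genes in these 4 pairs was 0 to 0.01. Of 10 genes with several passing probes, the probes differed in sign for Ifih1, Irf1 and Irgm1 in polypoid tissue, Mx1 in inflamed tissue, and Ddx58 and Mx1 in the interaction.

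**Figure D3:**
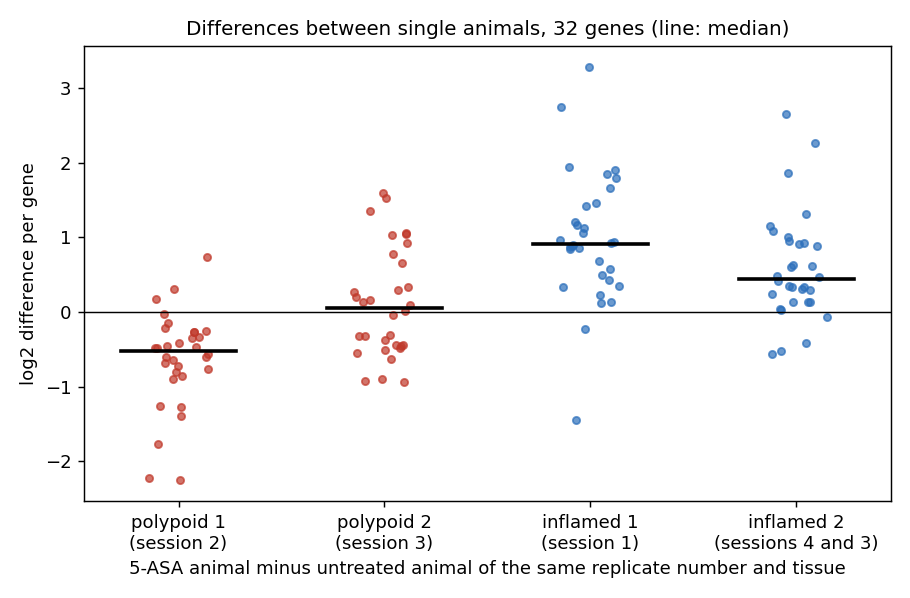
Log2 difference between a 5-ASA mouse and the untreated mouse of the same tissue and replicate number, 1 point per gene for 32 interferon response genes, with the median as a line. The first polypoid pair lies mostly below 0 (median -0.53), the second around 0 (0.06), and both inflamed pairs mostly above 0 (0.91 and 0.44).

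Among the regulators, all 4 (Irf1, Irf7, Irf9 and Stat2) had higher means with 5-ASA in inflamed tissue, by 0.49 to 0.75 log2. In polypoid tissue 3 of the 4 had lower means, and the differences ran from -0.56 for Irf9 to 0.3 for Irf1. Irf7, which drives the amplification of type I interferon, had values of 0.85 and 0.32 in 5-ASA polypoid tissue, against 1.1 and 0.77 in untreated polypoid tissue. Its values were 2.23 and 1.1 in 5-ASA inflamed tissue, against 1.06 and 0.77 in untreated inflamed tissue. Only the first 5-ASA inflamed mouse stood clearly apart, since the second was level with the first untreated polypoid mouse. The 5-ASA difference of Irf7 in inflamed tissue was 0.75 ± 0.39 log2 (SE, limma unadjusted p = 0.1, adjusted p = 0.98), and in polypoid tissue -0.35 ± 0.39 (adjusted p = 0.93).

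Irf9, the DNA-binding part of the complex with Stat2, had 1.6 and 1.27 in 5-ASA polypoid tissue, against 2.09 and 1.9 in untreated polypoid tissue. The inflamed values were 2.71 and 1.97 in 5-ASA mice, against 1.81 and 1.61 in untreated mice. The mice of the 2 arms did not overlap in either tissue. The interaction of Irf9 was -1.19 ± 0.38 log2 (SE, limma unadjusted p = 0.02, adjusted p = 0.8). Stat2 had 0.1 and 0.22 in 5-ASA polypoid tissue, against 0.7 and 0.12 in untreated polypoid tissue, and the arms overlapped there. Its values were 1.14 and 0.53 in 5-ASA inflamed tissue, against 0.46 and 0.23 in untreated inflamed tissue, where they did not overlap.

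The 3 sensors, helicases that recognise viral RNA in the cytoplasm, behaved differently from each other. Dhx58 (LGP2) had 0.82 and 0.26 in 5-ASA polypoid tissue, against 1.17 and 1.16 in untreated polypoid tissue. In inflamed tissue its values were 2.24 and 1.69 in 5-ASA mice, against 0.3 and 1.22 in untreated mice. The arms did not overlap in either tissue, and the interaction was -1.83 ± 0.52 log2 (SE, limma unadjusted p = 0.012, adjusted p = 0.8). Ddx58 (RIG-I) had 1.48 and 1.72 in 5-ASA polypoid tissue, against 1.17 and 0.19 in untreated polypoid tissue, so that here the 5-ASA mice were the higher ones. Its difference in polypoid tissue was 0.92 ± 0.35 log2 (SE, limma unadjusted p = 0.039, adjusted p = 0.63). In inflamed tissue Ddx58 had 1.01 and 0.59 in 5-ASA mice, against 0.66 and 0.26 in untreated mice. A second probe of Ddx58 gave 0.25 in polypoid tissue, with the interaction at -0.05 where the brighter probe gave 0.58. Ifih1 (MDA5) had drug differences of -0.13 in polypoid and 0.01 in inflamed tissue, and its second probe gave 0.09 and 0.67.

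The effectors, which act on viral RNA, proteins or particles, held the largest differences in inflamed tissue, where 16 of 17 had higher means with 5-ASA and their median was 0.98 log2. In polypoid tissue 15 of 17 were lower, with a median of -0.53. Ifit1, which binds foreign RNA and blocks its translation, had 3.78 and 2.05 in 5-ASA inflamed tissue, against 0.49 and 1.13 in untreated inflamed tissue. Both 5-ASA mice were higher, by 4.3-fold on average (2.1 ± 0.64 log2, SE, limma unadjusted p = 0.016, adjusted p = 0.98). In polypoid tissue Ifit1 had 1.25 and 0.6 in 5-ASA mice, against 2.16 and 1.15 in untreated mice, and the arms overlapped.

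Ifit2, a close relative of Ifit1, was highest in 5-ASA inflamed tissue. It had 0.28 and 0.81 in 5-ASA polypoid tissue, against 1.14 and 0.03 in untreated polypoid tissue. Inflamed tissue gave 2.68 and 2.25 in 5-ASA mice, against 0.77 and 0 in untreated mice. The 5-ASA inflamed mice lay above all 6 others, and the inflamed difference was 2.08 ± 0.45 log2, or 4.23-fold (SE, limma unadjusted p = 0.0033, adjusted p = 0.98). These values come from a dim probe, with a spot intensity of 90.08 to 677.3, well above background on 13 of 15 arrays. The second probe of Ifit2 gave 1.5 in inflamed tissue. That probe passed the filter on dim probes only through 5-ASA inflamed tissue, where it was highest. Its inflamed difference is therefore no separate support. Ifit3 differed by 2.03 ± 1.11 in inflamed tissue (SE), with a wide spread in untreated mice at 1.86 and -0.76. A second passing probe of Ifit3, well above background on all 15 arrays, gave 1.06, with 0.58 and 0.49 in untreated inflamed mice. Ifit3 and Oas1a have close relatives in the mouse genome that a probe could also bind, which was not tested.

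Isg15, a ubiquitin-like protein that is attached to other proteins, had 0.62 and -0.14 in 5-ASA polypoid tissue, against 0.89 and 0.17 in untreated polypoid tissue. In inflamed tissue it had 1.82 and 0.9 in 5-ASA mice, against 0.35 and -0.01 in untreated mice. The arms overlapped in polypoid tissue and did not in inflamed tissue, where Isg15 was 2.28-fold higher with 5-ASA (1.19 ± 0.43 log2, SE, limma unadjusted p = 0.031, adjusted p = 0.98). The Isg15 probe was dim, with a spot intensity of 85.69 to 377.4, and was well above background on 13 of 15 arrays. Rsad2 (viperin), which makes a chain-terminating nucleotide, had 3.97 and 2.2 in 5-ASA inflamed tissue, against 1.22 and 1.73 in untreated inflamed tissue. Its 2 other probes, of which 1 failed the filter, gave inflamed differences of 0.16 and 0.18, against 1.61 for the brightest probe.

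Oasl1, a relative of the oligoadenylate synthetases that in mice restrains Irf7 translation, had the smallest p among the 32 genes in the polypoid comparison and for the interaction. It had 0.94 and 0.58 in 5-ASA polypoid tissue, against 1.59 and 1.53 in untreated polypoid tissue. The inflamed values were 2.51 and 1.93 in 5-ASA mice, against 1.31 and 1.31 in untreated mice. The arms did not overlap in either tissue, and the replicates lay closer together than the arms. The 5-ASA difference was -0.79 ± 0.23 log2 in polypoid tissue (SE, limma unadjusted p = 0.012, adjusted p = 0.59) and 0.91 ± 0.23 in inflamed tissue (unadjusted p = 0.0065, adjusted p = 0.98). The interaction was -1.71 ± 0.32 (unadjusted p = 0.0016, adjusted p = 0.8). The enzymes Oas1a and Oas2, which make the messenger that activates RNase L, differed by 0.3 and 1.04 in inflamed tissue, while Oas3 went the other way at -0.15.

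Bst2 (tetherin) holds budding virus particles at the cell surface. It had -0.18 and -0.59 in 5-ASA polypoid tissue, against 0.09 and 0.33 in untreated polypoid tissue. Inflamed tissue gave 0.48 and 0.65 in 5-ASA mice, against 0.35 and -0.3 in untreated mice. The mice did not overlap in either tissue, and the interaction was -1.14 ± 0.37 log2 (SE, limma unadjusted p = 0.021, adjusted p = 0.8). Ifi35, an interferon-induced leucine zipper protein, had small values with the same order, 0.28 and 0.14 in 5-ASA polypoid tissue, against 0.5 and 0.58 in untreated polypoid tissue. In inflamed tissue Ifi35 had 0.64 and 0.51 in 5-ASA mice, against 0.31 and -0.09 in untreated mice. Its interaction was -0.8 ± 0.24 log2 (SE, limma unadjusted p = 0.016, adjusted p = 0.8).

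Parp14, an ADP-ribosyltransferase, had 2.04 and 1.97 in 5-ASA polypoid tissue, against 2.81 and 2.29 in untreated polypoid tissue. In inflamed tissue it had 3.93 and 3.19 in 5-ASA mice, against 3.08 and 3.06 in untreated mice. No values of the 2 arms overlapped in either tissue, though the second 5-ASA inflamed mouse lay only just above the untreated ones. Its second passing probe gave -0.1 in polypoid and 0.24 in inflamed tissue. That probe was well above background on 11 of 15 arrays and passed the filter only through 5-ASA inflamed tissue, where it was highest. Its signs are therefore no separate support. Among the other effectors, the inflamed difference was 1.49 for Ifi44, 1 for Oasl2, 0.98 for Eif2ak2 (PKR) and 0.92 for Mx2, while Mx1 stayed within 0.07 of 0 in both tissues. Mx1 was well above background on 12 of 15 arrays, with a spot intensity of at most 156.9.

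**Figure D4:**
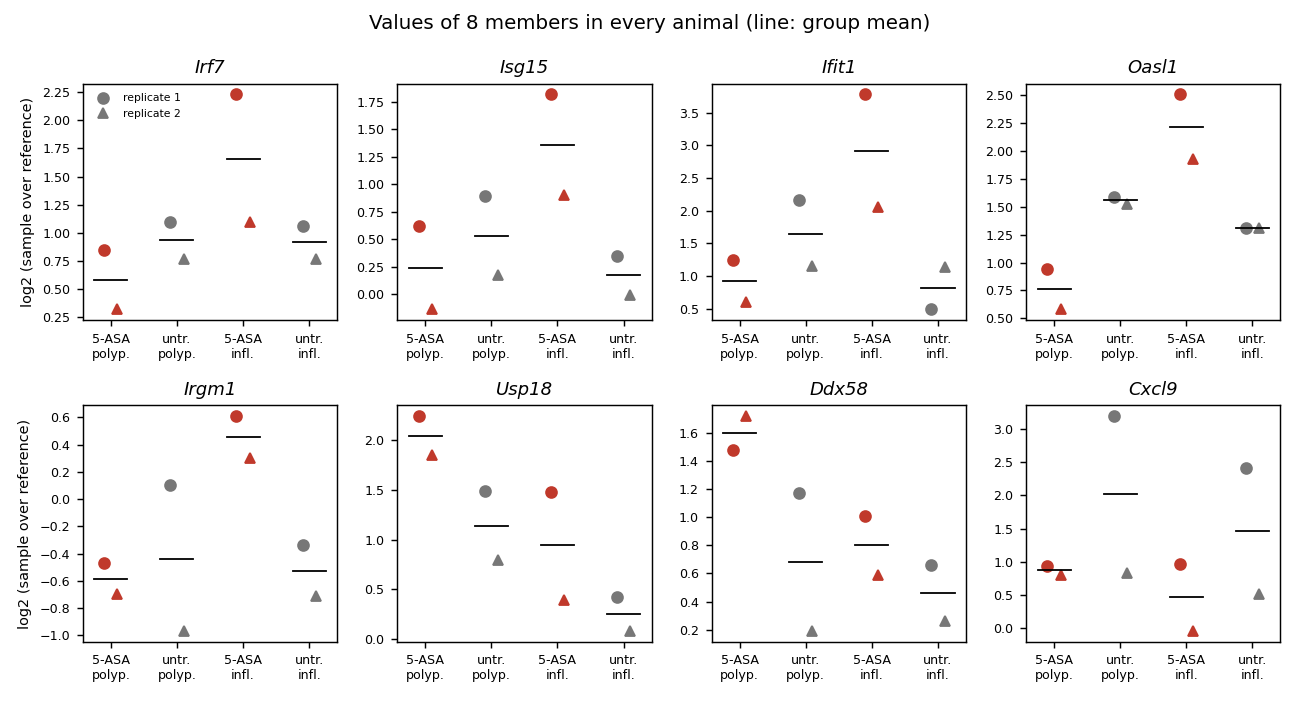
Log2 of sample over reference in every mouse for 8 interferon response genes, with 5-ASA mice in red, untreated mice in grey and the group mean as a line. Irf7, Isg15, Ifit1, Oasl1 and Irgm1 are highest in 5-ASA inflamed tissue, while Usp18 and Ddx58 are highest in 5-ASA polypoid tissue and Cxcl9 is highest in the first untreated mouse of each tissue.

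The modifiers did not share the pattern of the effectors in polypoid tissue, where both had higher means with 5-ASA. Usp18, which removes Isg15 from proteins and dampens the interferon receptor, had 2.24 and 1.85 in 5-ASA polypoid tissue, against 1.49 and 0.79 in untreated polypoid tissue. The inflamed values were 1.48 and 0.39 in 5-ASA mice, against 0.42 and 0.08 in untreated mice. The arms did not overlap in polypoid tissue and overlapped in inflamed tissue. The 5-ASA differences of Usp18 were 0.9 ± 0.42 in polypoid tissue (SE, limma unadjusted p = 0.072, adjusted p = 0.68) and 0.69 ± 0.42 in inflamed tissue (adjusted p = 0.98). Trim25, a ubiquitin ligase that activates RIG-I, had 0.57 and 1.34 in 5-ASA polypoid tissue, against 0.92 and 0.4 in untreated polypoid tissue. In inflamed tissue its values were 2 and 1.41 in 5-ASA mice, against 1.14 and 0.53 in untreated mice, with no overlap.

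The 4 interferon-inducible GTPases, which attack the vacuoles of intracellular microbes, all had higher means with 5-ASA in inflamed tissue, by 0.31 to 1.37 log2, the largest being Gbp3. In polypoid tissue Gbp2, Igtp and Irgm1 had lower means (-0.53, -0.21 and -0.15) and Gbp3 a higher one (0.46). Irgm1 had -0.47 and -0.7 in 5-ASA polypoid tissue, against 0.1 and -0.97 in untreated polypoid tissue. Inflamed tissue gave 0.61 and 0.3 in 5-ASA mice, against -0.34 and -0.71 in untreated mice. The 5-ASA inflamed mice were the 2 highest of all, and the inflamed difference was 0.98 ± 0.36 log2 (SE, limma unadjusted p = 0.034, adjusted p = 0.98). Gbp2 had 2.21 and 2.16 in 5-ASA polypoid tissue, against 3.61 and 1.83 in untreated polypoid tissue. Its inflamed values were 4.23 and 3.55 in 5-ASA mice, against 3.73 and 3.42 in untreated mice, and the arms overlapped in both tissues.

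The chemokines Cxcl9 and Cxcl10, which attract T cells and NK cells, varied most between the mice of the untreated groups. Cxcl9 had 0.94 and 0.8 in 5-ASA polypoid tissue, against 3.2 and 0.83 in untreated polypoid tissue. In inflamed tissue it had 0.96 and -0.05 in 5-ASA mice, against 2.42 and 0.51 in untreated mice. The 2 highest values were those of the first untreated mouse of each tissue. Cxcl10 had 3.11 and 1.81 in 5-ASA polypoid tissue, against 3.6 and 1.51 in untreated polypoid tissue, and 1.96 and 0.79 in 5-ASA inflamed tissue, against 2.19 and 0.39 in untreated inflamed tissue. In every group the mouse scanned in session 1 or 2 was above the one scanned in session 3 or 4, and no difference with the drug passed the test (limma adjusted p = 0.84 to 1 over both chemokines and both tissues).

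Polypoid tissue of 5-ASA mice had lower interferon gene levels than inflamed tissue of 5-ASA mice, while untreated mice had a median difference near 0. The test of that contrast is the interaction above, which no gene passed. In 5-ASA mice 28 of the 32 genes had lower means in polypoid tissue, with a median of -1.03 log2 against 0 over all genes, and in 24 of 32 both polypoid mice lay below both inflamed mice, against 28.5% of all genes. Ddx58 and Usp18 were above in both, against 26.7% of all genes. At an unadjusted limma p under 0.05, 20 genes were lower and 1 higher (Usp18), against 8.15% and 11% of all genes. At an adjusted limma p under 0.05, 2 of the 32 genes fell and 0 rose, against 1.02% and 2.04% of all genes. Oasl1 fell by 1.46 on the log2 scale (SE 0.23, limma adjusted p = 0.033) and Parp14 by 1.56 (SE 0.28, adjusted p = 0.047). The second passing probe of Parp14 gave -0.36. Ifit3 at -2.84 (limma adjusted p = 0.24) and Rsad2 at -2.65 (adjusted p = 0.088) had the largest differences and did not pass. Their second passing probes gave -1.38 and -0.32. Both calls of Oasl1 and Parp14 were lost without either 5-ASA polypoid mouse, either 5-ASA inflamed mouse or either untreated inflamed mouse, with adjusted p between 0.057 and 0.22. They were also lost with the deposited value table (limma adjusted p of 0.062 and 0.069) and with a scan session block (0.43 for both). The 5-ASA polypoid mice were scanned in sessions 2 and 3 and the 5-ASA inflamed mice in sessions 1 and 4, so no session holds both tissues of 5-ASA mice. Without the filter on dim probes Parp14 had an adjusted p of 0.058. Without the first 5-ASA inflamed mouse the median was -0.61.

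In untreated mice 22 of the 32 genes had higher means in polypoid than in inflamed tissue, with a median of 0.14 log2 against -0.03 over all genes. None passed an adjusted limma p of 0.05, against 0.164% of all genes in either direction. At an unadjusted limma p under 0.05, 1 gene was higher, Ifi35, against 8.22% of all genes. Its difference was 0.43 ± 0.17 log2 (SE, limma unadjusted p = 0.044, adjusted p = 0.38). Both polypoid mice lay above both inflamed mice in 5 genes, Irf9, Ifit1, Oasl1, Ifi35 and Usp18 (15.6%), against 19.4% of all genes. Ifih1 and Parp14 were below in both, against 22.4% of all genes. The sign of the median turned without the first untreated polypoid mouse (-0.25) and without the second untreated inflamed mouse (-0.11), and the median was 0.38 without the second untreated polypoid mouse and 0.32 without the first untreated inflamed mouse. In the 2 untreated mice of session 3 the median was -0.05.

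None of the interferon genes themselves passed an adjusted limma p of 0.05 with 5-ASA in either tissue. Of 16 ligand genes listed, 10 passed the filter, and their differences with 5-ASA ran from -0.11 to 0.38 log2 in polypoid tissue and from -0.15 to 0.09 in inflamed tissue. The highest was Ifng, which encodes interferon gamma, at 0.22 and 0.36 in 5-ASA polypoid tissue, against 0.02 and -0.2 in untreated polypoid tissue (0.38 ± 0.14 log2, SE, limma unadjusted p = 0.033, adjusted p = 0.61). It was opposite in sign to the median of the 32 genes there. Ifnb1, the first type I interferon made by most cells, did not pass the filter. All 6 receptor subunits had higher means with 5-ASA in inflamed tissue, with a median of 0.4, led by Il10rb at 0.84 ± 0.33 log2 (SE, limma unadjusted p = 0.043, adjusted p = 0.98). The type I receptor pair, Ifnar1 and Ifnar2, differed by 0.06 ± 0.17 and 0.4 ± 0.36 there (SE). The median of the 6 subunits in polypoid tissue was -0.03.

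Of 30 further type I induced genes that passed the filter, 25 had higher means with 5-ASA in inflamed tissue (median 0.32), while in polypoid tissue 17 were higher and 13 lower (median 0.02). Of 18 genes induced mainly by interferon gamma, 14 were higher in inflamed tissue (median 0.29) and 10 lower in polypoid tissue (median -0.04). The medians of the 32 genes were 0.81 and -0.34. Zc3hav1, which marks viral RNA for decay, had the smallest p of these genes in inflamed tissue, at 1.92 and 1.28 in 5-ASA mice, against 0.72 and 0.47 in untreated mice (1.01 ± 0.24 log2, SE, limma unadjusted p = 0.005, adjusted p = 0.98). Psmb10, a subunit of the immunoproteasome, had the smallest p in polypoid tissue, at 1.39 and 1.41 in 5-ASA mice, against 2 and 2.04 in untreated mice (-0.62 ± 0.16 log2, SE, limma unadjusted p = 0.008, adjusted p = 0.55). Ifi27 followed it at -0.56 ± 0.16. In 5-ASA mice, polypoid over inflamed tissue, limma called 6 of the 91 tested genes of the other interferon lists, 3 higher and 3 lower, against the 2.04% and 1.02% of all genes given above. Socs3, an inhibitor of cytokine receptors (2.45), the cytoplasmic DNA signalling adaptor Sting1 (2.23) and Ifitm1 (1.51) rose and Psmb10 (-1.09), Ifi27 (-1.58) and Ifi27l2a (-3.16) fell, with adjusted p between 0.016 and 0.049. All 6 calls were lost with a scan session block (limma adjusted p = 0.43) and without the first 5-ASA inflamed mouse (adjusted p of 0.13 to 0.27). In untreated mice the same 6 genes had differences of the same sign and adjusted p of 0.099 to 0.58.

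All 8 epithelial markers were well above background on the 15 arrays. Some markers of cell types differed in the same direction as the interferon genes, and in captured tissue fewer cells of a type and less RNA per cell cannot be told apart. Of 8 macrophage markers, 7 had higher means with 5-ASA in inflamed tissue (median 0.3) and 6 had lower means in polypoid tissue (median -0.3). Their summed brightness was 75750 to 120498 in 5-ASA inflamed mice, against 68024 to 105283 in untreated inflamed mice, and 65022 to 66989 in 5-ASA polypoid mice, against 60964 to 102438 in untreated polypoid mice. The summed brightness of the interferon genes was 89944 to 134450 in 5-ASA inflamed mice, against 64151 to 75881 in untreated inflamed mice, and 45038 to 56547 in 5-ASA polypoid mice, against 39499 to 75423 in untreated polypoid mice. All 8 epithelial markers had lower means with 5-ASA in polypoid tissue (median -0.44), and 6 of 8 higher means in inflamed tissue (median 0.08). All 6 smooth muscle markers were lower with 5-ASA in inflamed tissue (median -1.44), with a summed brightness of 11107 to 19513, against 45247 to 101052 in untreated inflamed mice. All 7 markers of B and plasma cells were lower with 5-ASA in polypoid tissue (median -1.55), with a summed brightness of 3055 to 3215, against 9137 to 42511 in untreated polypoid mice. Markers of T and NK cells had medians of -0.13 in polypoid and -0.09 in inflamed tissue, and those of plasmacytoid dendritic cells, strong producers of type I interferon, -0.06 and -0.16. Siglech, a defining marker of plasmacytoid dendritic cells, was well above background on 7 of 15 arrays. Fibroblast markers had medians of -0.2 and 0.22, endothelial markers -0.05 and 0.13, and neutrophil markers 0 and -0.1. Between the tissues the markers differed more. In polypoid over inflamed tissue of 5-ASA mice, all 6 neutrophil markers were higher (median 2.03). All 7 markers of B and plasma cells (median -2.19) and all 8 of macrophages (median -0.37) were lower there. In untreated mice these medians were 1.88, -0.86 and 0.14. The part of these cell types in the interferon gene differences was not tested.

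The genes with symbols not on the interferon lists whose values over the 8 mice were most like the mean of the 32 genes were BC013672 (r of 0.964), Palmd and Plekha8 (both 0.965), Fbxo39 (0.96) and the transcript TC1463498 (0.974). The names BC013672 and TC1463498 had no match in the reference table, so whether either is a listed gene under an older name was not settled. Ddx60, Dtx3l and Helz2 of the type I list had no probe under their names. BC013672 had 4.74 and 2.88 in 5-ASA inflamed tissue, against 2.17 and 1.15 in untreated inflamed tissue. In polypoid tissue it had 2.16 and 1.23 in 5-ASA mice, against 2.53 and 0.87 in untreated mice. It too was highest in the first 5-ASA inflamed mouse.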

How the data were processed

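The 15 arrays of 8 mice were read with Agilent Feature Extraction 9.1.1.1, per the file headers, which give mean spot intensity and median local background per channel and the scanner's log10 ratio. A deposited value table gives log2 ratios of sample to reference, in which swapped arrays are already turned. Its slope on the log10 ratio was 2.816 to 3.073, its column medians were -0.0121 to 0.0308 and its correlation with the values computed here was 0.9959 or more per array. Its background correction and normalization are not given in the sources used here. Here R 4.3.3 and limma 3.58.1 were used, with normexp (offset 50), loess within arrays and swapped arrays turned. Outlier spots of the scanner software were dropped. Fitting animal and dye together gave 1 value per gene and mouse. The second 5-ASA inflamed mouse had no Cy5 array, so its value rests on 1 array and the dye effect of the others. A probe was kept if all arrays of some group had it well above background, and the brightest probe stood for a gene. Limma compared the 4 groups in 5 contrasts with 4 residual and 2.14 prior degrees of freedom and Benjamini-Hochberg adjustment over 21300 genes at 0.05. Counts of mice without overlap cover the 21298 genes with a value in all mice. The script was tested on simulated data. The members, gene lists and tests were chosen with earlier results of these data known. Genes named with values were those with the smallest p per role or comparison, plus Isg15, Ifit1, Irf7 and Stat2. Other members were added to fill their role and to show disagreeing probes, after their values were seen. Alternatives were Agilent's processed signals, the value table, an offset of 16, no filter on dim probes, the mean of all probes, no dye term, Cy3 arrays only, blocks for replicate number and scan session, and each mouse left out. With 2 mice per group, the number of mice limits the precision.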

Additional observations from a re-analysis of the deposited data

Results flagged for a closer look

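For 7 of the 32 genes both 5-ASA mice lay below both untreated mice in polypoid tissue and above both in inflamed tissue, against 2.87% of all genes. In polypoid tissue alone the share was 21.9%, close to the 19.2% of all genes, and in inflamed tissue alone 71.9%, against 14.9%. Mx2 met the rule narrowly in inflamed tissue, where the second 5-ASA mouse, with 1 array, had -0.26, against -0.3 in the second untreated mouse. The interaction of the 7 genes, the 5-ASA difference in polypoid tissue minus that in inflamed tissue, was -1.19 log2 for Irf9, -1.83 for Dhx58, -1.41 for Mx2, -1.71 for Oasl1, -1.14 for Bst2, -0.8 for Ifi35 and -1.04 for Parp14. In limma the unadjusted p of these interactions was 0.0016 to 0.07 and the adjusted p 0.8 to 0.86, so none passed the threshold of 0.05.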

How the results depend on the processing

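Under the 9 alternatives that keep all mice, the medians of the 32 genes kept their sign in each of the 5 comparisons. Leaving out 1 mouse at a time gave medians of -0.65 to 0.04 for 5-ASA in polypoid tissue, 0.39 to 1.18 for 5-ASA in inflamed tissue, -1.31 to -0.66 for the interaction, -1.41 to -0.61 for polypoid over inflamed tissue in 5-ASA mice and -0.25 to 0.38 in untreated mice. The 2 genes that fell in polypoid over inflamed tissue of 5-ASA mice became 0 with the deposited value table, 1 without the filter on dim probes, 7 with a replicate block, 0 with a scan session block and 0 to 3 without 1 mouse; the session block leaves 1 residual degree of freedom. Over all genes this comparison had 651 calls, 1089 with the replicate block, 0 with the session block and 0 to 892 without 1 mouse. In untreated mice it had 35 calls, against 83 with Agilent's processed signals, 22 with the value table, 11 without the filter, 17 with the replicate block, 0 with the session block and 0 to 12 without 1 mouse. The correlations of same-numbered deviations were 0.0341 to 0.363, above 0.1 in 4 of the 6 pairs of groups, so the replicate numbers were not taken to pair the mice. Mice numbered 1 were all scanned in sessions 1 and 2 and those numbered 2 in sessions 3 and 4. For the interaction, the smallest adjusted p over all genes was 0.14 with the replicate block, against 0.8 without it. With all mice kept, the interactions that turned sign or reached 0 were Usp18 and Cxcl9 with processed signals (-0.28 and 0.36), Ifih1, Cxcl9 and Cxcl10 with Cy3 arrays only (0.09, 0.06 and 0), and Oas3, Usp18, Cxcl9 and Cxcl10 with the session block (-0.08, -0.16, 0.3 and 0.13). Without 1 mouse they were -0.33 to 0.76 for Usp18, -1.33 to 1.04 for Cxcl9, -1.23 to 0.86 for Cxcl10 and -1.74 to 0.04 for Gbp2, and Irf1, Ifih1, Gbp3, Oas3 and Mx1 also turned sign or reached 0 without some mouse. The causes were not tested. Dim spots limit Mx1 most.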
